A study of Mus musculus with 24 samples.

Results

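The collagen genes of the mouse were examined in the tibialis anterior muscle of mice given photobiomodulation therapy (PBMT) or no light, with or without exhausting exercise. Members were the protein-coding genes whose GENCODE mouse symbol reads Col, a type number, the letter a and a chain number. The rule gave 44 of the 21974 protein-coding genes in the count table. They were grouped as 8 fibrillar collagens, 9 basement membrane collagens, 7 cartilage collagens, 3 tendon-related collagens, 6 chains of the microfibrillar type VI and 11 others.

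A collagen molecule is 3 chains wound into a triple helix, each chain the product of its own gene. Fibrillar collagens pack into the fibres that carry tension between muscle fibres and into the tendon, and the chains of type I are the bulk of them. Type IV collagens form the sheet-like network of the basement membrane that wraps every muscle fibre, capillary and nerve. Cartilage collagens stiffen cartilage, and type XI also seeds fibrils elsewhere. The tendon-related collagens sit on fibril surfaces or at the junction of muscle and tendon. Type VI forms fine beaded filaments between the basement membrane and the fibres outside it. Most collagen RNA of a muscle comes from fibroblasts and other stromal cells, not from muscle fibres, and a whole muscle sample reads all of them together.

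RNA was sequenced from the left tibialis anterior of 24 male C57BL/6J mice of 5 to 7 weeks, all wild type and all shaved, depilated and anesthetized. PBMT mice lay for 20 min under an 830 nm diode array at 25 mW/cm2, which delivered 30 J/cm2 to the lower limbs, and control mice lay anesthetized for the same time without light. Muscles of 6 sedentary control and 6 sedentary PBMT mice were taken at 24 h, and 6 fatigued control and 6 fatigued PBMT mice ran on an inclined treadmill to exhaustion at 24 h and were killed straight after. No group received heat without light, another wavelength or another dose, and each mouse gave 1 library. Mice of each exercise state formed a sequencing project of their own, so exercise and project cannot be told apart, whereas PBMT and control mice were compared within a project. Each mouse's counts summed to between 43271093 and 46904076 in sedentary control mice and between 46327516 and 52775844 in sedentary PBMT mice. Sums lay between 56792327 and 68726155 in fatigued control mice and between 53122528 and 68566029 in fatigued PBMT mice. Levels are given as CPM, a gene's counts scaled to the same total in every library, with TMM scaling so that a few dominant genes do not shift the rest. Levels of different genes are compared only per kilobase, by the bases that all exons of a gene cover unless the longest transcript is named.

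Some mice stood apart from their group before any comparison was made. Fatigued PBMT replicate 5 had the highest level of all 24 mice in 18 of the 39 collagens tested across all mice, among them 6 of the 8 fibrillar genes. Its summed collagen level was 5532 CPM, against 3250 CPM in the next mouse of its group. Fatigued control replicate 1, fatigued PBMT replicate 5 and sedentary PBMT replicate 6 also carried far more RNA of 6 bone cell markers than the rest. Their summed bone marker levels were 26.2, 23.4 and 22.2 CPM, the next mouse had 9.17 CPM and the next after it 3.95 CPM. The same mice had the highest Col12a1 levels, at 53.0, 64.2 and 36.7 CPM. Sedentary PBMT replicate 2 was apart in the type IV chains, and sedentary control replicate 4 in Col22a1. How much bone, tendon or skin was carried into each sample was not measured, and results are given with and without these mice where they decided one.

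By level, 5 genes led. Averaged over the 24 mice and per kilobase of exon, Col1a1 stood at 50.8 CPM, rank 592 among all protein-coding genes. Col3a1 followed at 36.2, Col4a1 at 34.7, Col1a2 at 34.7 and Col4a2 at 27.1. The order within these 5 depended on the length used. Exons of Col1a2 cover 12426 bases in all but 5348 in its longest transcript, and per kilobase of longest transcript Col1a2 led at 80.5, before Col3a1 at 63.8, Col1a1 at 56.2, Col4a1 at 39.2 and Col4a2 at 27.8. Group means of Col1a1 per kilobase were 29.5 ± 10.7 (SD, n = 6) in sedentary control, 26.0 ± 10.9 in sedentary PBMT, 63.6 ± 26.0 in fatigued control and 84.1 ± 70.2 in fatigued PBMT mice. For Col4a1 they were 28.7 ± 6.92, 23.0 ± 9.55, 43.5 ± 15.4 and 43.6 ± 10.9. Col6a1 came next at 12.7, and the chains Col6a2, Col15a1, Col5a3, Col6a3, Col5a2 and Col5a1 lay between 6.51 and 4.07. Every other collagen averaged under 2 CPM per kilobase of exon. Fibrillar genes made up a median of 51.9% of the collagen total per kilobase of exon, basement membrane genes 32.5% and type VI chains 10.5%, or 60.2%, 25.6% and 9.63% by longest transcript. The other collagens held 1.86%, the tendon-related collagens 1.49% and the cartilage collagens 0.96%.

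**Figure D1:**
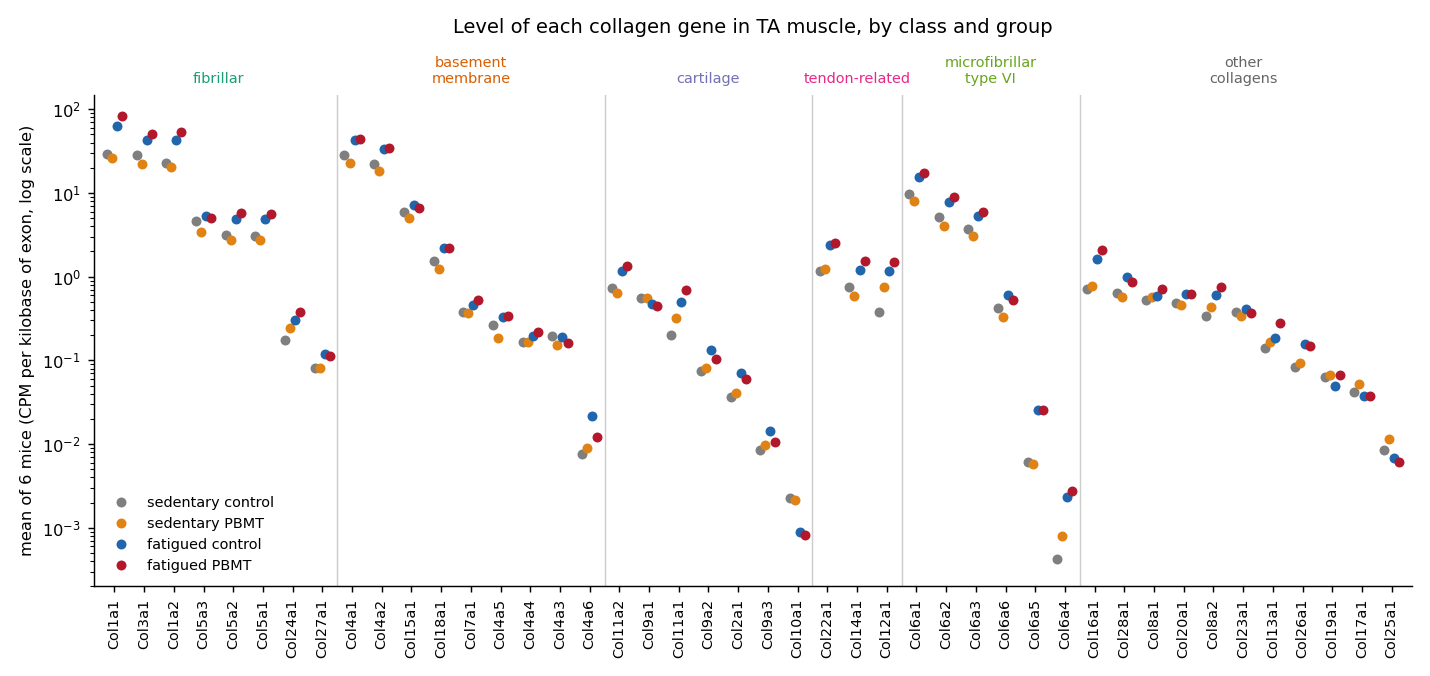
Mean level of each of the 44 collagen genes in CPM per kilobase of exon (log axis), by class, with 1 point for each of the 4 groups of 6 mice. Col1a1, Col3a1, Col4a1, Col1a2 and Col4a2 lie highest, and Col6a4 and Col10a1 lie lowest, at 0.00158 and 0.00154 CPM per kilobase on average over the 24 mice.

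Of the 44 genes, 5 did not pass the filter on low counts in any of the edgeR comparisons. Col10a1, the collagen of hypertrophic cartilage, had 0 counts in 20 of 24 mice and at most 2. Col6a4 had 0 in 14 mice and at most 4. Col9a3 had at most 8 counts, Col25a1 at most 14, and Col4a6 at most 32 with a median of 4.5. Col6a5 had a median of 6 counts and a highest of 37, and did not pass it among the sedentary mice alone. That left 38 genes tested among sedentary mice, 39 among fatigued mice and 39 across all 24.

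In sedentary muscle 0 of 38 collagens changed with PBMT at an adjusted p under 0.05 in edgeR. Across all genes tested in that comparison, 4 of 14177 did, 0.0282%. Col4a5 alone among the collagens had an unadjusted p under 0.05, where 1082 of all genes did, 7.63%. DESeq2 called 0 collagens with 3 at an unadjusted p under 0.05, where 5.03% of all its genes were. Limma voom called 0 with 11, of which 9 were lower and 2 higher, where 14.5% of all its genes were under 0.05. Col4a5 was also the only collagen whose 6 PBMT and 6 control mice did not overlap, and 68 of all genes tested were so separated, 0.48%. Estimates lay above 0 for 16 of the 38, with a median log2 fold change of −0.15, where the median of all genes tested was −0.00186. That median lay nearer 0 without sedentary control replicate 4 (−0.03) and without sedentary PBMT replicates 1 (−0.07), 3 (−0.08) or 4 (−0.10). It was −0.05 with no filter on low counts and −0.07 in DESeq2, both of which include all 44 genes, and −0.08, with 18 of 38 above 0, once a trend on GC content was removed. Without sedentary PBMT replicate 6 it was −0.20, with 9 of 38 above 0. The count of 1 at an unadjusted p was 9, all lower, without sedentary PBMT replicate 2, where all genes had 1754 of 14266. It was 5, all lower, without sedentary PBMT replicate 6 (all genes 937 of 14275) or sedentary control replicate 5 (1016 of 14293). It was 4 without sedentary control replicate 4 (3 higher; 1325 of 14273) or 6 (all lower; 1492 of 14306) or sedentary PBMT replicate 1 (2 higher; 769 of 14288) or 3 (3 higher; 843 of 14284). It was 2, both lower, without sedentary control replicate 3 (771 of 14270) or sedentary PBMT replicate 4 (957 of 14284). Such a list is described by its counts and its median, and nothing particular to collagens was tested. In bulk samples, fewer cells of a type and less RNA per cell cannot be told apart.

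The summed level of the collagens was 1034 CPM in the lowest sedentary control mouse, 1528 at the median and 1820 in the highest. In sedentary PBMT mice it was 891, 1023 and 1867 CPM. Replicates 1, 3 and 4 of the PBMT mice lay below every control and replicate 2 above every control, so the groups overlapped only in part. As a share of all counts the medians were 0.159% and 0.100%. In fatigued mice the sums were 1687, 2402 and 3275 CPM without light and 1620, 2321 and 5532 CPM with it. Apart from replicate 5, every fatigued PBMT mouse lay within the range of the fatigued controls or just under it.

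In fatigued muscle 0 of 39 collagens changed with PBMT in edgeR, as did 0 of 14574 genes tested (0%). Among all genes 230 had an unadjusted p under 0.05, 1.58%, and 0 of them were collagens. DESeq2 called 0 collagens with 0 at an unadjusted p under 0.05 (1.64% of all its genes), and limma voom called 0 with 1 (2.84%). In 4 genes, 0.0274%, the groups did not overlap, and 0 were collagens. The median collagen log2 fold change was 0.15 with 27 of 39 above 0, where all genes tested had a median of 0.00406. It was 0.05 with no filter and 0.07 in DESeq2. The sign rested on fatigued PBMT replicate 5: without it the median was −0.11 and 7 of 39 were above 0. It was 0.07 without fatigued control replicate 4 and 0.23 without fatigued control replicate 3. Without the 3 mice highest in bone markers, an alternative chosen after seeing the data, it was −0.06, and in limma voom with quality weights −0.07.

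Whether the effect of PBMT differed between fatigued and sedentary muscle was tested as the difference of both log2 fold changes in a model of all 24 mice. In edgeR 0 of 39 collagens and 1 of 15108 genes, 0.00662%, differed. At an unadjusted p under 0.05 there were 1 collagen, Col4a5, and 665 genes, 4.4%. That collagen count was 0 with no filter and with 10 counts asked of each sample. It was 0 without fatigued control replicate 1, 2, 4 or 5 or fatigued PBMT replicate 2, 5 or 6. The same held without sedentary control replicate 2, 4, 5 or 6 or sedentary PBMT replicate 1, 4 or 5. DESeq2 and limma voom each called 0 collagens, with 1 at an unadjusted p under 0.05 in each (3.09% and 6.49% of all their genes). The median difference was 0.18 with 28 of 39 above 0, where all genes tested had a median of 0.017. It was 0.03 without fatigued PBMT replicate 5, 0.29 without sedentary control replicate 5 and 0.32 without sedentary PBMT replicate 6. Once a trend on GC content was removed it was 0.11, with 25 of 39 above 0.

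**Figure D2:**
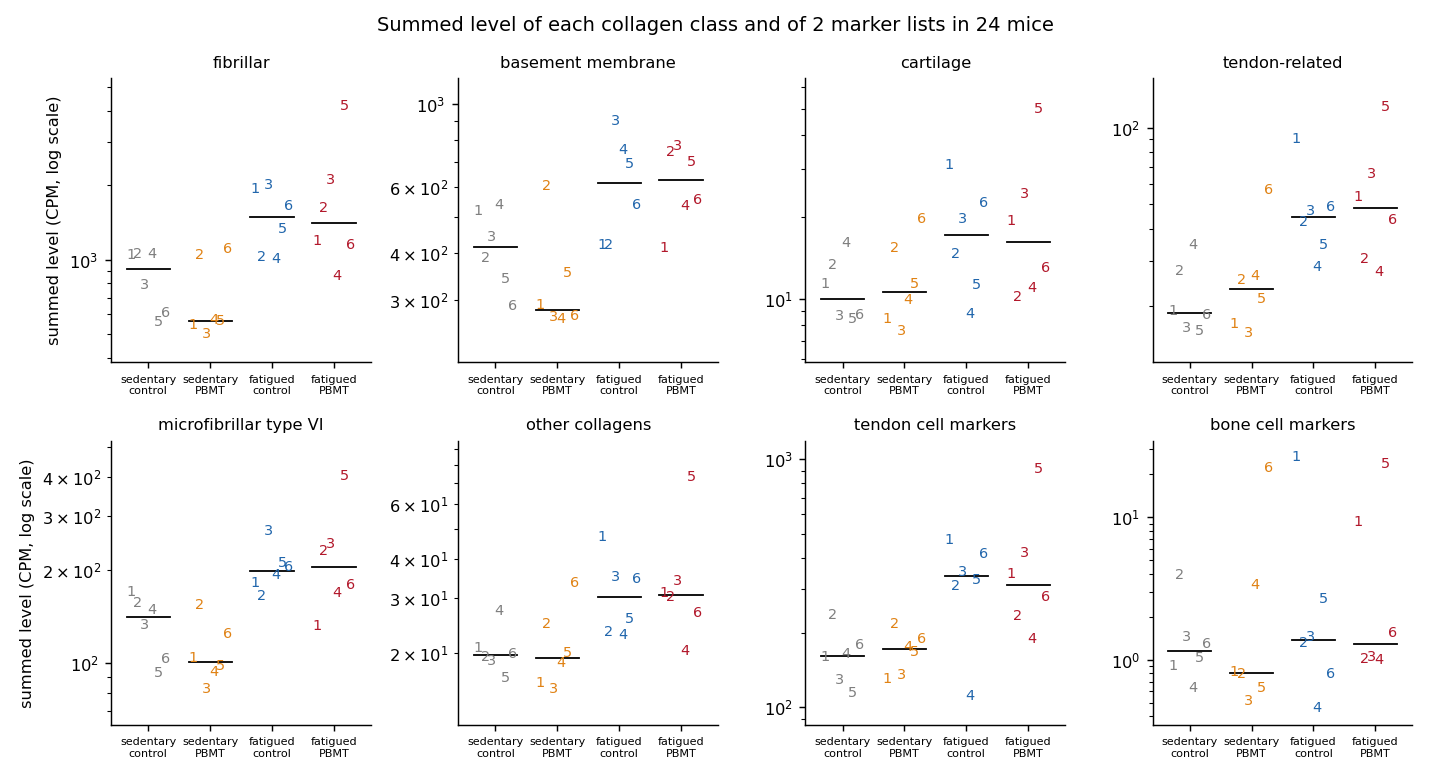
Summed level in CPM (log axis) of the 6 collagen classes and of the tendon and bone cell markers in each mouse, drawn as its replicate number, with a bar at each group's median. Fatigued mice lie above sedentary mice in each class at the median, and fatigued PBMT replicate 5 is highest in every class but the basement membrane collagens.

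The larger differences lay between fatigued and sedentary mice, which were also the ones sequenced apart. Among control mice 5 of 39 collagens were higher in fatigued muscle and 0 were lower: Col6a5, Col22a1, Col24a1, Col6a1 and Col4a2. Col6a5 passed the filter on low counts among fatigued mice and not among sedentary mice, so its call is not separate from that filter. With 10 counts asked of each sample Col6a5 was not tested, and 4 of 34 collagens were called. Of all 15108 genes 2809 differed (18.6%) and 1375 were higher in fatigued muscle (9.1%). At an unadjusted p under 0.05 there were 19 collagens and 4861 genes, 32.2%. Groups did not overlap for 2 collagens, Col6a1 and Col14a1, and for 1164 genes, 7.7%. The median collagen log2 fold change was 0.61 with 35 of 39 above 0, where all genes tested had a median of −0.012. The count of 5 depended on the tool and on single mice. It was 20 in limma voom, 9 in DESeq2, 15 with only the 12 mice compared and 3 with no filter on low counts. It was 3 without fatigued control replicate 1, 3 or 6 or without sedentary control replicate 3, and 2 without sedentary control replicate 5 or 6. It was 11 without sedentary control replicate 4 and 13 without the 3 mice highest in bone markers. Not called in the full data, Col1a1, Col5a1, Col5a2, Col7a1, Col18a1 and Col20a1 passed without sedentary control replicate 4. Col5a2 passed without fatigued control replicate 2, Col1a1 and Col1a2 without fatigued control replicate 4, and Col26a1 without sedentary control replicate 1. Without the 3 mice Col1a1, Col5a1, Col5a2, Col6a2, Col6a3, Col6a6, Col12a1 and Col18a1 passed. Their adjusted p lay between 0.00430 and 0.0481.

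Among PBMT mice 19 of 39 collagens were higher in fatigued muscle and 0 were lower. Of all 15108 genes 4051 differed (26.8%) and 2135 were higher in fatigued muscle (14.1%). At an unadjusted p under 0.05 there were 19 collagens and 5674 genes, 37.6%. Groups did not overlap for 1 collagen, Col4a5, and for 1689 genes, 11.2%. The median log2 fold change was 0.78 with 36 of 39 above 0, where all genes tested had a median of 0.002. Without fatigued PBMT replicate 5 the median was 0.58 and 16 were called. Not called in the full data, Col11a1 (adjusted p = 0.0382), Col12a1 (0.0235) and Col13a1 (0.0488) passed without sedentary PBMT replicate 6. Col15a1 (0.0293) passed without sedentary PBMT replicate 2 and Col4a4 (0.0411) without fatigued PBMT replicate 1. The 19 genes were 6 fibrillar, 4 basement membrane, 1 cartilage, 2 tendon-related, 5 type VI and 1 other collagen. The 5 type VI genes include Col6a5, which passed the filter on low counts among fatigued mice and not among sedentary mice. All 5 genes called among control mice were among the 19. The gap between 19 and 5 depended on the fit. Limma voom called 21 here and 20 among control mice, only the 12 mice compared gave 16 and 15, and DESeq2 19 and 9. Calls were 16 and 3 with no filter and with replicate number as a block. They were 18 and 4 with 10 counts asked of each sample, and 19 and 5 with DESeq2 size factors. Of the 14 genes called here and not among control mice, 12 passed among control mice in limma voom, 9 with only the 12 mice compared, 7 without the 3 mice highest in bone markers and 3 in DESeq2. The direct test of a difference between PBMT and control mice called 0 collagens. The comparisons share groups of mice and are not independent.

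**Figure D3:**
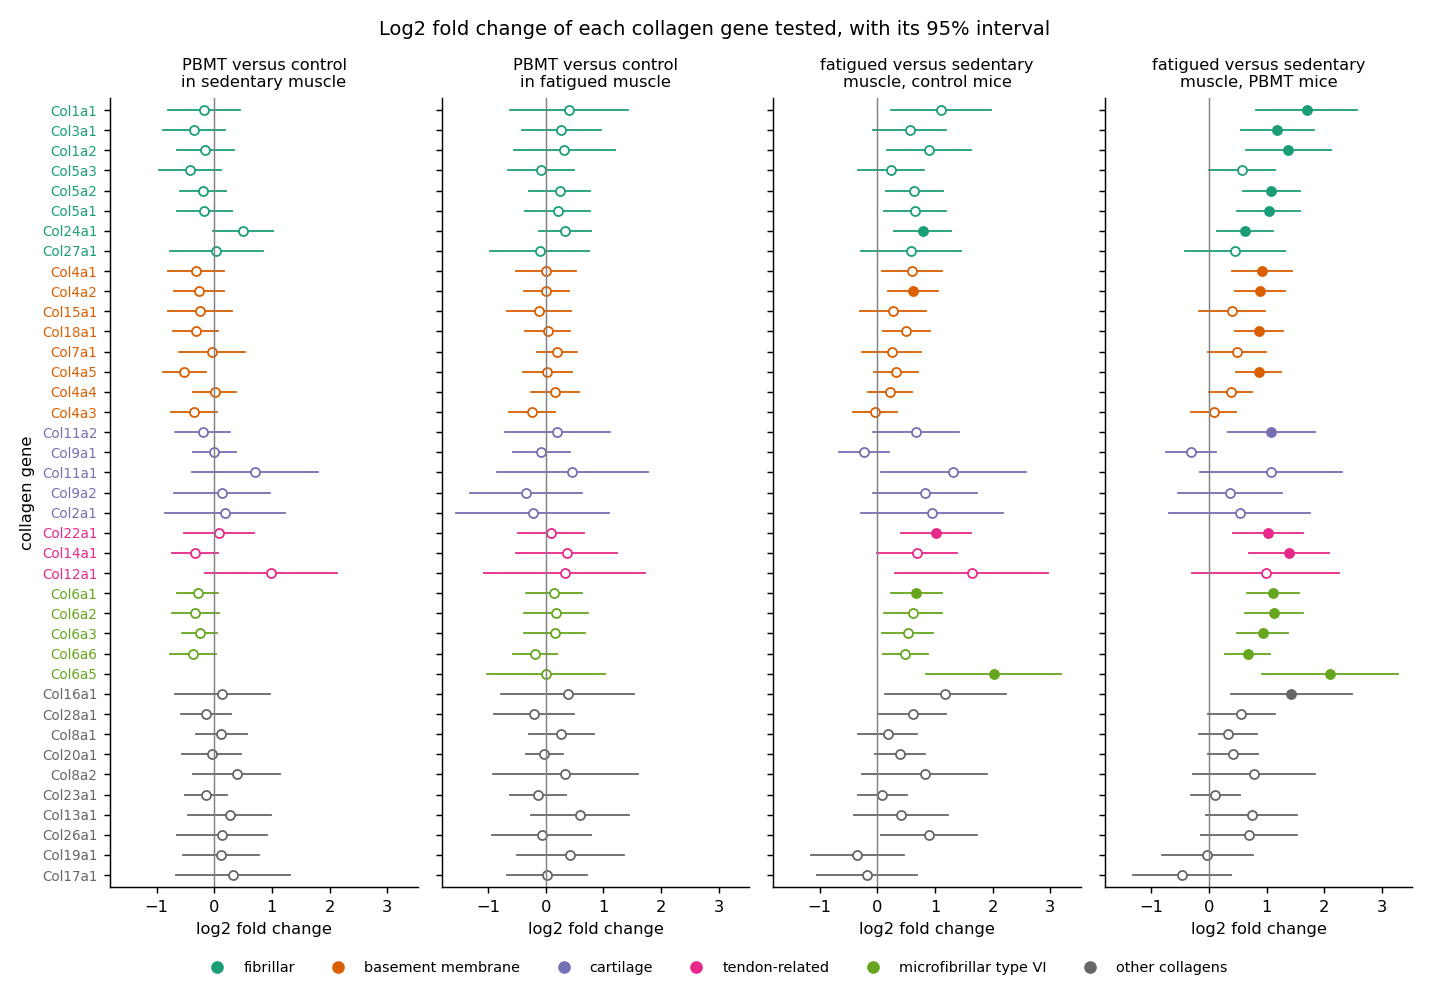
Log2 fold change of each tested collagen with its 95% interval in 4 comparisons (PBMT against control in sedentary and in fatigued muscle, fatigued against sedentary muscle in control and in PBMT mice), filled where the adjusted p is under 0.05. No point is filled for PBMT, and 5 and 19 are filled for fatigued against sedentary muscle.

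Fibrillar collagens were the most abundant class, and none of the 8 was called with PBMT. Their summed level had medians of 913 and 565 CPM in sedentary mice without and with light, and 1490 and 1408 CPM in fatigued mice. Their median log2 fold change with PBMT was −0.18 in sedentary muscle. It was −0.36 without sedentary PBMT replicate 6, with 2 genes at an unadjusted p under 0.05 in place of 0, and −0.28 without sedentary PBMT replicate 2. It lay nearer 0 without sedentary PBMT replicate 1 (−0.12) or 3 (−0.09) or sedentary control replicate 2 (−0.10) or 4 (−0.08). In fatigued muscle it was 0.25, which became 0.16 without fatigued control replicate 2 and −0.11 without fatigued PBMT replicate 5.

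Col1a1 (ENSMUSG00000001506, GRCm38 chr11:94936224-94953042) encodes the chain that type I collagen uses in 2 copies. Its lowest, median and highest levels were 111, 181 and 285 CPM in sedentary control mice and 107, 139 and 266 in sedentary PBMT mice. They were 207, 409 and 639 in fatigued control mice and 203, 392 and 1457 in fatigued PBMT mice. Sedentary groups lay side by side, fatigued mice were mostly higher, and the top value belonged to fatigued PBMT replicate 5. Among PBMT mice Col1a1 was higher in fatigued muscle by a log2 fold change of 1.69 ± 0.421 (SE; adjusted p = 0.00511), with 5 of 6 fatigued mice above every sedentary mouse. Without replicate 5 it was 1.12 (adjusted p = 0.0222), and the estimate with PBMT in fatigued muscle went from 0.41 to −0.17. Among control mice it was 1.11 ± 0.41 and did not pass (adjusted p = 0.0673), though it did without fatigued control replicate 4 (0.0473), sedentary control replicate 4 (0.0461) or the 3 mice highest in bone markers (0.0470). Col1a2, its partner chain, had group medians of 293, 204, 538 and 491 CPM in the same order and was likewise called among PBMT mice, at 1.38 ± 0.353 (adjusted p = 0.00623). Without fatigued control replicate 4 it also passed among control mice (0.0463).

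Col3a1 makes the thin fibrils of stretchy tissue and of young scar. It had lowest, median and highest levels of 174, 305 and 380 CPM in sedentary control mice and 148, 181 and 348 in sedentary PBMT mice. In fatigued mice they were 257, 412 and 591 without light and 256, 457 and 982 with it. Sedentary PBMT mice were the lowest group by median, but the sedentary groups overlapped. Its log2 fold change with PBMT was −0.35 in sedentary muscle (adjusted p = 0.655), −0.53 without sedentary PBMT replicate 6, and 0.27 in fatigued muscle, where it was −0.04 without replicate 5. Among PBMT mice Col3a1 was higher in fatigued muscle at 1.19 ± 0.308 (adjusted p = 0.00655; 4 of 6 above every sedentary mouse). Type V, which starts type I fibrils and sets their width, followed it: Col5a1 was called at 1.04 and Col5a2 at 1.08 among PBMT mice. Among control mice Col5a1 passed without sedentary control replicate 4 (0.0301) or the 3 mice highest in bone markers (0.0357), and Col5a2 without replicate 4 (0.0443), fatigued control replicate 2 (0.0481) or those 3 mice (0.0180). Col5a3 and Col27a1 were called in none of the comparisons.

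Col24a1, a fibrillar collagen of forming bone, was called in both comparisons of fatigued with sedentary muscle. Its lowest, median and highest levels were 1.04, 1.15 and 2.15 CPM in sedentary control mice and 1.07, 1.88 and 2.94 in sedentary PBMT mice. They were 1.43, 2.42 and 2.74 in fatigued control mice and 1.35, 3.14 and 3.58 in fatigued PBMT mice. Sedentary control mice were lowest and fatigued PBMT mice highest, with 1 low mouse in each fatigued group. Among control mice it was higher in fatigued muscle at 0.79 ± 0.242 (adjusted p = 0.0239; 5 of 6 above every sedentary mouse). That call was lost without fatigued control replicate 1 (0.0532) or sedentary control replicate 1 (0.0543) or 6 (0.0514). Among PBMT mice it was 0.63 ± 0.236 (adjusted p = 0.0488; 4 of 6 above every sedentary mouse). That call held only when fatigued PBMT replicate 2 or sedentary PBMT replicate 6 was left out, and without any other mouse the adjusted p was 0.0510 to 0.119. It was also lost with no filter on low counts (0.0598), with replicate number as a block (0.0558) and with only the 12 mice compared (0.0812). DESeq2 (0.0345) and limma voom (0.0170) kept it. With PBMT it was 0.50 in sedentary muscle, 0.32 without sedentary PBMT replicate 6, and 0.33 in fatigued muscle. In fatigued muscle 5 of 6 PBMT mice lay above every control, but the test did not pass (unadjusted p = 0.139).

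**Figure D4:**
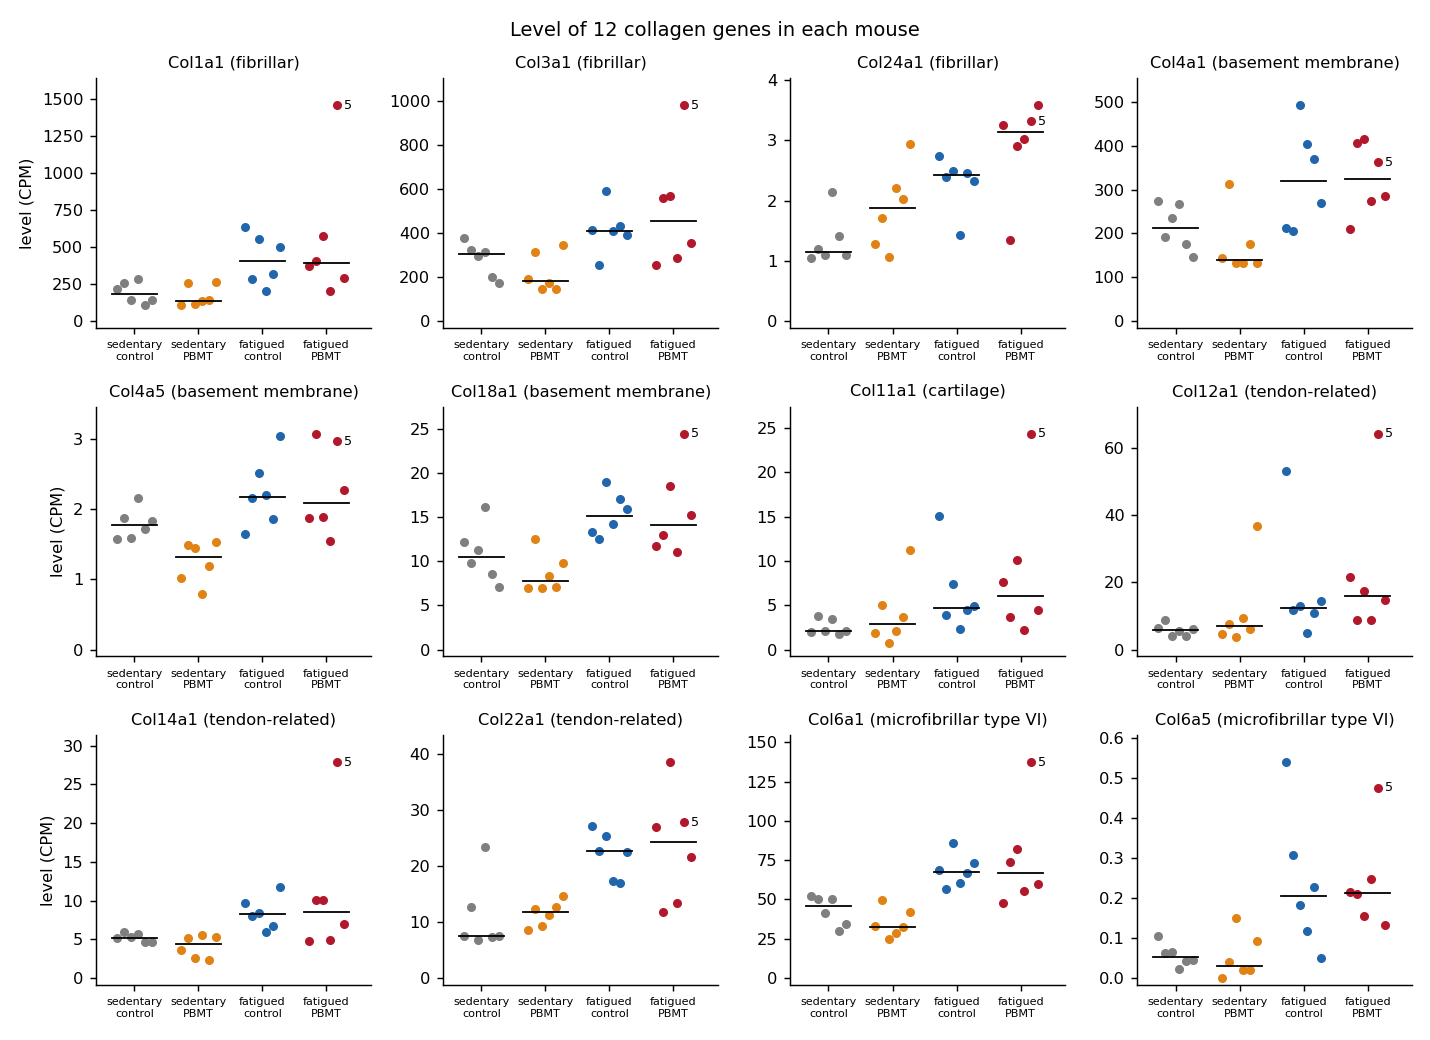
Level in CPM of 12 collagens in each of the 24 mice, by group, with a bar at the group's median and fatigued PBMT replicate 5 marked 5. Col4a5 separates the sedentary groups, and the mouse marked 5 is the highest of 24 in Col1a1, Col3a1, Col18a1, Col11a1, Col12a1, Col14a1 and Col6a1.

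Basement membrane collagens had summed levels of 414, 281, 616 and 628 CPM at the median of the same 4 groups. Of the 8 tested, 0 were called with PBMT, and Col4a5 alone had an unadjusted p under 0.05, in sedentary muscle. Their median log2 fold change with PBMT was −0.29 in sedentary muscle, with 1 of 8 above 0, and −0.46 without sedentary PBMT replicate 2. In fatigued muscle it lay near 0 and took both signs, from −0.06 without fatigued control replicate 1 to 0.11 without fatigued control replicate 3.

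Col4a1 (ENSMUSG00000031502) and Col4a2 (ENSMUSG00000031503) encode the chains of the type IV molecule found in every basement membrane. Col4a1 had lowest, median and highest levels of 146, 213 and 274 CPM in sedentary control mice and 132, 139 and 313 in sedentary PBMT mice. In fatigued mice they were 206, 319 and 492 without light and 211, 324 and 416 with it. Col4a2 showed the same layout, with group medians of 141, 101, 229 and 231 CPM. Most sedentary PBMT mice were at or under the low end of the controls, but replicate 2, at 313 and 206 CPM, was above all of them. Log2 fold changes with PBMT were −0.32 and −0.26 in sedentary muscle. Without replicate 2 they were −0.57 (adjusted p = 0.218) and −0.47 (adjusted p = 0.284), and Col4a2 was −0.16 without sedentary control replicate 4. In fatigued muscle they were 0.00 and 0.01, with no steady sign as single mice were left out. Col4a2 was higher in fatigued muscle among control mice at 0.62 ± 0.208 (adjusted p = 0.0416; 4 of 6 above every sedentary mouse). That call held in 4 of 12 runs without 1 mouse: it was lost without fatigued control replicate 3 (0.0976), 4 (0.0818), 5 (0.0770) or 6 (0.0511). It was also lost without sedentary control replicate 2 (0.0732), 3 (0.0644), 5 (0.0915) or 6 (0.0940), with no filter on low counts (0.0866) and with replicate number as a block (0.0530). Among PBMT mice both were called, Col4a1 at 0.92 ± 0.249 and Col4a2 at 0.89 ± 0.209, and kept in every run without 1 mouse.

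Col4a1 and Col4a2 lie head to head on chromosome 8, with Col4a1 at 11198423 to 11312826 on the minus strand and Col4a2 at 11312805 to 11449287 on the plus strand. In the annotation their starts overlap by 22 bases. The ratio of Col4a1 to Col4a2 per kilobase had a median of 1.24 and stayed between 1.15 and 1.43 over the 24 mice, or 1.26 and 1.57 by longest transcript. Col4a4 and Col4a3 start 71 bases apart on chromosome 1, and their ratio, of Col4a3 to Col4a4, ranged from 0.580 to 1.77 (0.644 to 1.97 by longest transcript). Col4a6 and Col4a5 start 1308 bases apart on chromosome X. The promoter windows of Col4a1 (chr8:11312777-11313076, minus strand) and Col4a2 (chr8:11312555-11312854, plus strand) are shown because they share 78 bases, printed in capitals. Each runs from 250 bases before the start to 50 after it, in RefSeq build GRCm38.p6, and each is read in its own gene's direction, so the capitals are each other's reverse complement. Promoters were found for 35 of the 44 collagen genes, 38 in all. Searched on both strands, GGGCGG, the core of the site bound by Sp1, was in 60.5% of collagen promoters and 35.7% of all 32851 promoters. CCAAT was in 34.2% and 37.4%, and TATAAA in 13.2% and 13.6%. Whether these shares differ was not tested, GC content of the promoters was not compared, and windows that share bases are not independent. The Col4a1 window has 1 CCAAT and 1 GGGCGG, the Col4a2 window 1 CCAAT and 3 GGGCGG, and both have 0 TATAAA.
Col4a1: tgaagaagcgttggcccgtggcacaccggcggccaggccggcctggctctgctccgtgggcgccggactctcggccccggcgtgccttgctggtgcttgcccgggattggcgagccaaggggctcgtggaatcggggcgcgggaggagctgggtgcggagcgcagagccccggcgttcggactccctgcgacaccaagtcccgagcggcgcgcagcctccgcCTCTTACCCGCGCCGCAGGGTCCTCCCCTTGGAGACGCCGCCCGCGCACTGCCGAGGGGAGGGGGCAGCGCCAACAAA
Col4a2: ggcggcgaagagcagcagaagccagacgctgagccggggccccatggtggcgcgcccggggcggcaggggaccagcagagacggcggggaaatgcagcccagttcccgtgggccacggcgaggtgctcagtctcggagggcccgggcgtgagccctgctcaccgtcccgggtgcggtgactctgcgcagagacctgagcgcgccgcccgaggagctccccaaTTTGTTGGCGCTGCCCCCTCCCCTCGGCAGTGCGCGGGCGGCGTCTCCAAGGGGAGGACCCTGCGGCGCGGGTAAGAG

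Col4a5 (ENSMUSG00000031274, chrX:141475385-141689234) encodes a type IV chain used in kidney, lung and the junction of nerve and muscle. Its lowest, median and highest levels were 1.58, 1.78 and 2.15 CPM in sedentary control mice and 0.788, 1.31 and 1.54 in sedentary PBMT mice. They were 1.65, 2.17 and 3.03 in fatigued control mice and 1.54, 2.08 and 3.07 in fatigued PBMT mice. Every sedentary PBMT mouse lay below every sedentary control mouse, and the fatigued groups overlapped almost fully. In sedentary muscle its log2 fold change with PBMT was −0.52 ± 0.176 (SE). The exact permutation p was 0.00216, the smallest 6 against 6 mice can give. Groups without overlap give that value, so it adds nothing to the separation. The gene did not pass adjustment over all genes tested (adjusted p = 0.504). The estimated difference of its PBMT effect between the exercise states was 0.55 and did not pass adjustment (unadjusted p = 0.0492, adjusted p = 0.946). Among PBMT mice Col4a5 was higher in fatigued muscle at 0.87 ± 0.190 (adjusted p = 0.0014), again with 6 of 6 fatigued mice above every sedentary mouse, and among control mice it was 0.32 (adjusted p = 0.244).

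Col18a1 and Col15a1 encode collagens that anchor basement membranes to the matrix beneath. Col18a1 had lowest, median and highest levels of 7.08, 10.5 and 16.1 CPM in sedentary control mice and 6.93, 7.72 and 12.5 in sedentary PBMT mice. In fatigued mice they were 12.5, 15.1 and 19.0 without light and 11.1, 14.1 and 24.4 with it. Fatigued groups were higher, with overlap. Col18a1 was called among PBMT mice at 0.87 ± 0.200 (adjusted p = 0.00245) and fell short among control mice (0.50, adjusted p = 0.0773), where it passed without sedentary control replicate 4 (0.0177) or the 3 mice highest in bone markers (0.0427). Col15a1 reached 63.6 CPM in sedentary PBMT replicate 2 against 27.7 in the next mouse of that group. It was not called, but without that mouse it passed among PBMT mice at 0.72 (adjusted p = 0.0293). Col4a3, Col4a4 and Col7a1, the last the collagen of anchoring fibrils in skin, were not called in any comparison. Col4a4 passed among PBMT mice without fatigued PBMT replicate 1 (0.0411), and Col7a1 among control mice without sedentary control replicate 4 (0.00430). Of the exon bases of Col4a3, 5.65% lie antisense to another gene, C430014B12Rik.

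Cartilage collagens were scarce: their summed level had medians of 10.0 CPM in sedentary control, 10.6 in sedentary PBMT, 17.1 in fatigued control and 16.2 in fatigued PBMT mice. Of the 5 tested 0 were called with PBMT, and the median estimate took both signs as single mice were left out. In sedentary muscle it ran from −0.02 without sedentary control replicate 6 to 0.35 without sedentary control replicate 4. In fatigued muscle it ran from −0.24 without fatigued PBMT replicate 5 to 0.13 without fatigued control replicate 1. Col11a2, a chain of type XI, had lowest, median and highest levels of 3.03, 5.17 and 7.44 CPM in sedentary control mice and 2.74, 4.41 and 6.93 in sedentary PBMT mice. In fatigued mice they were 3.96, 8.35 and 12.6 without light and 4.34, 7.26 and 21.3 with it. Fatigued groups reached higher, but their low ends overlapped with sedentary mice. It was called among PBMT mice, at 1.08 ± 0.363 (adjusted p = 0.0306). That call was lost without fatigued PBMT replicate 5 (log2 fold change 0.65, adjusted p = 0.143) or 3 (0.0524), and without sedentary PBMT replicate 1 (0.0703), 3 (0.0651) or 5 (0.0516). It was also lost in limma voom (0.0602), with no filter on low counts (0.0706), with only the 12 mice compared (0.0507) and without the 3 mice highest in bone markers (0.173). Replicate number as a block ended it too (0.0875). Col11a1, the partner chain, ran from 0.708 to 11.2 CPM in sedentary PBMT mice and from 2.19 to 24.3 in fatigued PBMT mice, a spread in which no comparison passed. Without sedentary PBMT replicate 6 it passed among PBMT mice (1.69, adjusted p = 0.0382). Col2a1, Col9a1 and Col9a2, the collagens of hyaline cartilage, were called nowhere.

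Tendon-related collagens had summed levels of 18.7, 23.2, 44.7 and 48.3 CPM at the median of the 4 groups. With PBMT 0 of 3 were called, and the median estimate took both signs as single mice were left out. In sedentary muscle it ran from −0.02 without sedentary control replicate 3 to 0.45 without sedentary control replicate 4. In fatigued muscle it ran from −0.19 without fatigued PBMT replicate 5 to 0.49 without fatigued PBMT replicate 4. Col22a1 (ENSMUSG00000079022, chr15:71795795-72034227) is made at the junction of muscle fibre and tendon. Its lowest, median and highest levels were 6.85, 7.56 and 23.3 CPM in sedentary control mice and 8.61, 11.7 and 14.6 in sedentary PBMT mice. They were 17.0, 22.6 and 27.1 in fatigued control mice and 11.8, 24.3 and 38.5 in fatigued PBMT mice. Fatigued mice were mostly higher, with overlap in both comparisons, and sedentary control replicate 4 stood apart at 23.3 CPM where the next mouse of its group had 12.6. Col22a1 was higher in fatigued muscle at 1.02 ± 0.296 among control mice (adjusted p = 0.0200; 2 of 6 above every sedentary mouse). It was higher at 1.03 ± 0.296 among PBMT mice (adjusted p = 0.0130; 4 of 6 above every sedentary mouse). The call among control mice was lost without sedentary control replicate 5 (0.0510).

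Col14a1 and Col12a1 encode collagens that coat fibrils in tendon and in the sheaths of muscle. Col14a1 had lowest, median and highest levels of 4.62, 5.24 and 5.92 CPM in sedentary control mice and 2.39, 4.40 and 5.54 in sedentary PBMT mice. In fatigued mice they were 5.93, 8.24 and 11.7 without light and 4.76, 8.53 and 27.9 with it. Every fatigued control mouse lay above every sedentary control mouse, narrowly, at 5.93 against 5.92 CPM. The exact permutation p was 0.00216, the value that groups without overlap give. The log2 fold change of 0.69 ± 0.33 did not pass adjustment over all genes tested (adjusted p = 0.157). Among PBMT mice it was called at 1.39 ± 0.337 (adjusted p = 0.00393), and at 0.84 without fatigued PBMT replicate 5. Col12a1 had medians of 5.78, 7.00, 12.4 and 16.0 CPM, each group but sedentary control with 1 mouse far above the others. Those were the 3 mice highest in bone markers, and no comparison of Col12a1 passed. Without those 3 mice it was higher in fatigued muscle among control mice at 0.93 (adjusted p = 0.0375) and among PBMT mice at 1.17 (adjusted p = 0.0121), and without sedentary PBMT replicate 6 alone among PBMT mice at 1.83 (adjusted p = 0.0235). With PBMT it had an estimate of 0.98 ± 0.53 in sedentary muscle (adjusted p = 0.669), which was 0.13 without sedentary PBMT replicate 6. In fatigued muscle the estimate was 0.32, which was −0.35 without fatigued PBMT replicate 5 and 1.04 without fatigued control replicate 1.

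Type VI collagen is assembled from Col6a1, Col6a2 and a longer chain, most often Col6a3, and loss of any of them weakens muscle. The class had summed levels of 141, 101, 199 and 205 CPM at the median of the 4 groups. Col6a1 (ENSMUSG00000001119, chr10:76708792-76726168) had lowest, median and highest levels of 29.7, 45.9 and 51.9 CPM in sedentary control mice and 24.6, 32.7 and 49.5 in sedentary PBMT mice. They were 56.7, 67.7 and 85.9 in fatigued control mice and 47.9, 66.8 and 137 in fatigued PBMT mice. Every fatigued control mouse lay above every sedentary control mouse, and 5 of 6 fatigued PBMT mice above every sedentary PBMT mouse. Log2 fold changes were 0.68 ± 0.214 (adjusted p = 0.0305) and 1.11 ± 0.216 (adjusted p = 5.73e-04). The call among control mice was lost without fatigued control replicate 3 (0.0618) or 6 (0.0522), without sedentary control replicate 3 (0.0509), 5 (0.0759) or 6 (0.0670), and with no filter on low counts (0.0674). Replicate number as a block also ended it (0.0577). With PBMT all 4 chains tested in sedentary muscle had negative estimates, with a median of −0.31, and none passed. In fatigued muscle 4 of 5 estimates lay above 0, with a median of 0.15, and none passed. Without fatigued PBMT replicate 5 that median was −0.11, with 0 of 5 above 0. Ratios between chains varied little over the 24 mice, but their size depended on the length used. Col6a1 to Col6a2 lay between 1.75 and 2.21 per kilobase of exon and between 1.10 and 1.39 per kilobase of longest transcript. Col6a3 to Col6a2 lay between 0.574 and 0.854 and between 0.401 and 0.597.

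Col6a2, Col6a3 and Col6a6 were called among PBMT mice, at 1.13 ± 0.244, 0.93 ± 0.214 and 0.67 ± 0.192. Among control mice they had estimates of 0.62, 0.53 and 0.49 with unadjusted p of 0.0180, 0.0214 and 0.0163, and did not pass adjustment. They passed there without the 3 mice highest in bone markers (0.0393, 0.0312 and 0.0409), and in limma voom and with only the 12 mice compared. Col6a5, a chain that can stand in for Col6a3, was near the limit of detection, with lowest, median and highest levels of 0.022, 0.054 and 0.107 CPM in sedentary control mice and 0, 0.031 and 0.150 in sedentary PBMT mice. In fatigued mice they were 0.051, 0.206 and 0.540 without light and 0.132, 0.212 and 0.476 with it. Fatigued mice were higher with little overlap. Log2 fold changes were 2.02 ± 0.573 among control mice (adjusted p = 0.0156; 5 of 6 above every sedentary mouse) and 2.11 ± 0.574 among PBMT mice (adjusted p = 0.00777). Col6a5 passed the filter on low counts among fatigued mice and not among sedentary mice. Its calls are therefore not separate from that filter, and nothing is concluded from them. It was not tested with only the 12 mice compared or with 10 counts asked of each sample. Among control mice the call was lost without fatigued control replicate 1 (1.59, adjusted p = 0.0619).

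Of the 11 other collagens 10 were tested, and Col16a1, a collagen on the surface of fibrils, was the only one called. They summed to 19.6, 19.2, 30.1 and 30.6 CPM at the median of the 4 groups. Col16a1 had lowest, median and highest levels of 2.79, 4.04 and 12.5 CPM in sedentary PBMT mice and 4.83, 10.3 and 39.2 in fatigued PBMT mice. The groups overlapped, with 1 of 6 fatigued mice above every sedentary mouse. Its log2 fold change was 1.43 ± 0.502 (adjusted p = 0.0389). That call was lost without fatigued PBMT replicate 5 (0.79, adjusted p = 0.205), without any of sedentary PBMT replicates 1 to 5 (0.0634 to 0.0838), with no filter on low counts (0.0804) and with only the 12 mice compared (0.0719). Replicate number as a block ended it too (0.0866). Col13a1, a membrane collagen of the nerve and muscle junction, had the highest estimate among the others with PBMT in fatigued muscle, 0.59 (unadjusted p = 0.160), and was 0.25 without replicate 5. It passed in fatigued against sedentary PBMT mice without sedentary PBMT replicate 6 (0.0488). Col8a1, Col8a2, Col17a1, Col19a1, Col20a1, Col23a1, Col26a1 and Col28a1, from vessel walls, skin, nerve and elsewhere, were not called in any comparison. Among control mice Col20a1 passed without sedentary control replicate 4 (0.0101) and Col26a1 without sedentary control replicate 1 (0.0275).

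Genes that fold, trim and bind collagen chains were read beside the collagens, 67 in all. EdgeR and limma voom tested 63 of them in sedentary and 64 in fatigued muscle, and DESeq2 tested 67 in each. With PBMT 0 were called in either state by edgeR, DESeq2 or limma voom. At an unadjusted p under 0.05 those tools had 3, 6 and 17 in sedentary muscle, where 7.63%, 5.03% and 14.5% of all genes were under it. In fatigued muscle they had 0, 0 and 1, where 1.58%, 1.64% and 2.84% of all genes were. Of 21 genes for folding and modification, 6 were higher and 1 lower in fatigued muscle among control mice, and 8 and 1 among PBMT mice. Serpinh1, the collagen chaperone of the endoplasmic reticulum, ranged from 39.0 to 59.5 CPM in sedentary control mice and from 76.8 to 98.0 in fatigued control mice, without overlap. It was higher at 0.72 ± 0.17 (adjusted p = 0.00408). P4ha1, the prolyl hydroxylase chain that stabilises the helix, was higher at 0.53 ± 0.06 (adjusted p = 5.07e-06), also without overlap (23.7 to 29.4 against 33.9 to 43.2 CPM). Tmem38b, a channel of the same compartment, was the gene that was lower, at −0.29. Of 13 genes for trimming and crosslinking, 2 were higher among control mice, Lox and Adamts14, and 10 among PBMT mice. Lox, which crosslinks collagen, had group medians of 14.0, 12.0, 25.8 and 25.8 CPM and was higher at 0.93 ± 0.26 (adjusted p = 0.0168) and 1.11 ± 0.26 (adjusted p = 0.00349). Of 22 matrix genes that bind collagen, 11 and 15 were higher, and of 11 collagen receptors 2 and 3, with 0 lower in each. Of all genes tested, 9.1% and 14.1% were higher in those comparisons. The direct test of a difference between PBMT and control mice called 0 genes in each of these lists, and 1 of 15108 genes. Tll2 and Gp6 were below the filter. The smallest p with PBMT in each list belonged to P3h3, Pcolce, Tnxb and Itga10 in sedentary muscle and to P4ha3, Adamts14, Thbs1 and Ddr1 in fatigued muscle.

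Marker genes of cell types moved with the collagens in part. Of 10 markers of interstitial mesenchymal cells, the fibroblasts and progenitors between fibres, 1 was higher in fatigued muscle among control mice and 9 among PBMT mice. For these markers, as for those of every other cell type here, the difference of the PBMT effects between the exercise states called 0. It called 1 of 15108 genes. Summed mesenchymal markers had medians of 1131 and 885 CPM in sedentary mice without and with light. In fatigued mice they had 1409 and 1304 CPM, and Gsn was highest per kilobase. With PBMT in sedentary muscle 0 of the 10 mesenchymal estimates lay above 0, as 0 of 6 macrophage estimates did, where 49.6% of all genes did. Other cell types lay either way. Above 0 were 6 of 8 tendon, 5 of 6 Schwann, 4 of 6 endothelial and 3 of 6 mural estimates. So were 2 of 5 adipocyte, 3 of 5 satellite, 5 of 7 fast fibre and 3 of 5 slow fibre estimates. Of the few cartilage, bone and keratinocyte markers tested, 0 of 2, 0 of 1 and 1 of 1 were. In fatigued muscle 10 of 10 mesenchymal and 5 of 6 macrophage estimates lay above 0, where 52% of all genes did. Without fatigued PBMT replicate 5 it was 2 of 10 and 1 of 6. Tendon and slow fibre markers had 8 of 8 and 5 of 5, and 2 of 8 and 2 of 5 without that mouse. Above 0 were also 4 of 6 endothelial, 2 of 6 mural, 1 of 6 Schwann and 1 of 7 fast fibre estimates. Adipocyte and satellite markers had 3 of 5 each, cartilage 2 of 3, bone 1 of 2 and keratinocyte 0 of 1. With PBMT in sedentary muscle edgeR called 0 of the 68 markers of all cell types that it tested, where it called 4 of 14177 genes. DESeq2 called 1 of 82, C1qb, where it called 60 of 27585 genes, and limma voom 3 of 68, C1qb, Ly6a and Mfap5, where it called 50 of 14177 genes. At an unadjusted p under 0.05 they had 10, 14 and 22 markers, beside 7.63%, 5.03% and 14.5% of all genes. In fatigued muscle each called 0 markers, with 0, 1 and 0 unadjusted, beside 1.58%, 1.64% and 2.84% of all genes. In fatigued against sedentary muscle 9.1% of all genes were higher among control mice and 14.1% among PBMT mice. Of 8 tendon cell markers 1 (Thbs4) and 4 were higher, with sums of 162, 171, 339 and 312 CPM at the median, 910 in fatigued PBMT replicate 5, and Fmod highest per kilobase. Of 8 cartilage cell markers 1 (Sox9) and 2 were higher, with median sums of 6.40, 6.90, 15.6 and 16.6 CPM and Comp highest. Acan, Matn1, Cnmd, Hapln1 and Ucma were below the filter and Matn1 was at 0 in 23 mice. Of 6 bone cell markers 0 and 2 were higher, with median sums of 1.16, 0.809, 1.37 and 1.29 CPM and Ibsp highest. The 2 were Bglap and Dmp1, which did not pass the filter on low counts among sedentary mice. Their calls are therefore not separate from that filter, and nothing is concluded from them. In fatigued PBMT mice the bone marker sum was 23.4 CPM in replicate 5, 9.17 in replicate 1 and at most 1.54 in the others. Mepe was at 0 in 19 mice, and Bglap and Sp7 in 8 each. Of 6 macrophage markers 0 and 6 were higher, with median sums of 39.6, 24.7, 53.9 and 54.3 CPM and C1qb highest per kilobase. The part of these cells in the collagen results was not tested.

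Lists of other cell types were read in the same way, beside the 9.1% and 14.1% of all genes that were higher. Endothelial markers had 1 of 6 higher among control mice, and 1 higher and 1 lower among PBMT mice. Mural cell markers had 2 of 6 higher in both, Schwann cell markers 1 of 6 in both, and adipocyte markers 0 and 1 of 5. Skin keratinocyte markers had 0 of 6 called among control mice and 1 lower among PBMT mice, Krt10, and only Krt10 passed the filter. Their sum was 27.9 CPM in sedentary PBMT replicate 4, and Krt1 was at 0 in 20 mice. Satellite cell markers had 1 of 5 higher among control mice and 1 higher and 1 lower among PBMT mice. Fast fibre markers, which define this muscle, had 4 and 3 of 7 higher, and slow fibre markers 1 of 5 in both. Summed fast fibre markers had medians of 103746 and 117846 CPM in sedentary mice without and with light and 149670 and 144310 CPM in fatigued mice, with Acta1 highest per kilobase.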

How the data were processed

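Gene counts were used as deposited. The submitters' processing notes name genome GRCm38 and Trimmomatic, STAR 2.7.1a, Picard 2.20.4, StringTie 2.0.4, featureCounts 1.6.0 and HTSeq. Which tool made the deposited counts, and its strand setting, are not stated, so counts of genes that overlap others, or lie antisense to them, are uncertain. Replicates are separate mice.

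Counts were scaled by TMM and tested in edgeR 4.0.16 (R 4.3.3) with robust quasi-likelihood, after filterByExpr at a minimum count of 10. A gene was called at a Benjamini-Hochberg adjusted p under 0.05 over all genes tested. PBMT was tested within each project in 12 mice, and the other comparisons in 1 model of 24 mice. All tests were 2-sided, and exact permutation tests of 6 against 6 mice used 924 arrangements of log2 CPM (prior count 2). Exon lengths came from GENCODE M21. The procedure was tested on simulated data.

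Alternatives were DESeq2 1.42.0, limma 3.58.1 voom with quality weights, no filter, a filter asking 10 counts of each sample, DESeq2 size factors, replicate number as a block, the other choice of mice in a model, each mouse left out in turn, unadjusted p, and loess trends (span 0.3) on transcript length and GC. Leaving out 3 mice highest in bone markers was added after seeing the data.

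The named collagens were the 3 highest per kilobase in each class, any called, and the 2 with the smallest p in each comparison. From each list, called genes, the smallest p with PBMT and the most abundant marker were named. The tests and the other alternatives were set before the data were examined here, but the members and the lists were chosen with earlier results of these data known. Lists were collagen folding, trimming and crosslinking, collagen-binding matrix, collagen receptors, and markers of interstitial mesenchymal, tendon, cartilage, bone, endothelial, mural, Schwann, keratinocyte, adipocyte, macrophage, satellite, fast fibre and slow fibre cells.

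Whole muscles carry unknown amounts of tendon, fascia, bone and skin. RNA levels give no measure of collagen protein, which turns over slowly, and muscles were taken at 1 time, from males of 1 age. Exercise is confounded with sequencing project.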

Additional observations from a re-analysis of the deposited data

Results flagged for a closer look

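In each group of 6 mice, the highest and the lowest mouse were compared with the nearest of the others for 26 named collagens and 6 class sums, 128 groups in all. A mouse stood apart where its gap, as a share of the group's range, exceeded the 95% critical value of Dixon's test. For normally distributed values the test flags about 1 in 20 groups, 6.4 here, and 27 were found. It was run on CPM, not on log levels, and whether CPM is normally distributed was not tested. The 27 are therefore not read as an excess over chance. The genes share mice, so these are not 27 separate events.

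Fatigued PBMT replicate 5 was highest in 11 of them. It had 1457 CPM of Col1a1 against 577 in the nearest mouse, and 93.4 CPM of Col5a1 against 47.8. Its Col11a1 was 24.3 CPM (nearest 10.1) and its Col11a2 21.3 (10.3). Its Col12a1 was 64.2 CPM (21.6), its Col14a1 27.9 (10.1) and its Col16a1 39.2 (11.6). Its Col6a5 was 0.476 CPM (0.248) and its Col8a1 10.7 (5.32). Cartilage collagens summed to 49.7 CPM in it (24.2) and the other collagens to 73.4 (33.8).

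Sedentary PBMT replicate 2 was highest in the basement membrane: Col4a1 313 CPM (nearest 177), Col4a2 206 (132), Col15a1 63.6 (27.7) and the class sum 604 (353). Sedentary PBMT replicate 6 was highest in Col12a1 at 36.7 CPM (9.34), Col13a1 at 1.48 (0.741), Col16a1 at 12.5 (5.32) and the tendon-related sum at 56.6 (26.1). Fatigued control replicate 1 was highest in Col12a1 at 53.0 CPM (14.4) and in the tendon-related sum at 89.8 (48.6).

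Sedentary control replicate 4 was highest in Col22a1 at 23.3 CPM (12.6), Col24a1 at 2.15 (1.42) and Col13a1 at 1.34 (0.630). Fatigued PBMT replicate 2 was lowest in Col24a1 at 1.35 CPM (2.91) and highest in Col28a1 at 8.09 (4.14). Fatigued control replicate 4 was lowest in Col24a1 at 1.43 CPM (2.32).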

How the results depend on the processing

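With PBMT in sedentary muscle, where 4 genes were called, the count over all genes was 16 with no filter, 60 in DESeq2, 50 in limma voom, 1 with all 24 mice in 1 model, 1082 at an unadjusted p, and 2 to 20 without 1 mouse. It was 20 without sedentary PBMT replicate 5, 18 without sedentary control replicate 4, 10 and 7 without sedentary PBMT replicates 2 and 4, and 2 without sedentary control replicate 1, 2 or 6. No alternative called a collagen by adjusted p. At an unadjusted p there was 1 collagen, which was 3 with no filter and in DESeq2, 11 in limma voom, and 1 to 9 without 1 mouse (9 without sedentary PBMT replicate 2). In fatigued muscle DESeq2 called 2 genes, and 230 passed unadjusted. With the replicate block, 11 genes were called in sedentary and 1 in fatigued muscle, and 3 collagens were called in fatigued against sedentary control mice. It left 4 collagens at an unadjusted p with PBMT in sedentary muscle and a collagen median of 0.07 in fatigued muscle. It ended the calls of Col4a2 (0.0530) and Col6a1 (0.0577) among control mice and of Col24a1 (0.0558), Col11a2 (0.0875) and Col16a1 (0.0866) among PBMT mice. Deviations of log2 CPM from the group mean correlated at −0.0855 to 0.0839 between sedentary control and PBMT mice of equal replicate number. In fatigued mice they correlated at −0.103 to 0.343. Means between unequal numbers were −0.00154 and −0.0296. Whether equal numbers mark pairs of mice is not stated.

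The collagen median with PBMT in fatigued muscle, 0.15, reversed to −0.0690 in limma voom, to −0.0587 without the 3 mice highest in bone markers (chosen after seeing the data) and to −0.11 without fatigued PBMT replicate 5. Without 1 mouse it lay between −0.11 and 0.23. Left-out mice show which mouse it rests on, and the cause was not tested. The difference of PBMT effects gave 1 to 3 genes without 1 mouse (3 without sedentary PBMT replicate 2) and 665 genes and 1 collagen unadjusted.

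For fatigued against sedentary control mice, 4945 genes were called in limma voom and 4861 unadjusted, against 2809. Collagens called, 5, became 3 with no filter, 9 in DESeq2, 20 in limma voom, 15 with only the 12 mice compared, 13 without the 3 mice, 19 unadjusted, and 2 to 11 without 1 mouse. The cause was not tested.

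Of the named collagens' log2 fold changes with PBMT, 553 of 612 without 1 mouse and 373 of 407 under the other alternatives kept their direction. Collagen transcripts are long, and with a trend on transcript length removed the collagen medians were −0.18, 0.13, 0.24, 0.50 and 0.71 (PBMT in sedentary muscle, in fatigued muscle, their difference, fatigued against sedentary control and PBMT mice). With a trend on GC removed they were −0.08, 0.12, 0.11, 0.51 and 0.53.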
